A study of Mus musculus with 16 samples.

Results

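The AP-1 family transcription factors examined here were 9 genes listed by name: the Fos family members Fos, Fosb, Fosl1 and Fosl2, the Jun family members Jun, Junb and Jund, and the related factors Atf3 and Maff. They were chosen for their identity, from 55385 genes in the deposited tables, though with earlier results of these data known. All 9 were among the 17222 genes that passed the filter on low counts. RNA was sequenced from primary cultures of hippocampi of newborn (P0) C57Bl/6N mice, which were infected with recombinant adeno-associated virus carrying either Control-shRNA or Dnmt3a1-shRNA2, the latter directed against Dnmt3a1, the long isoform of the DNA methyltransferase Dnmt3a. Each shRNA was expressed from a U6 promoter, which is not restricted to a cell type, and the vectors of all groups also carried a GFP cassette. The cultures were left at baseline or treated for 4 h with bicuculline, a blocker of GABA-A receptors that releases the network from inhibition and produces bursts of synaptic activity. This gave 4 groups of 4 libraries, with 4 independent neuronal preparations per group. The sources do not state whether libraries of different groups came from the same preparation. As the libraries were made from whole cultures, a change in the number of cells of a type cannot be told apart from a change in the RNA per cell.

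AP-1 factors are basic leucine zipper proteins that bind DNA as dimers. Fos proteins pair with Jun proteins and do not form stable dimers among themselves, while Jun proteins can also pair with each other. Fos, Fosb, Junb and Atf3 are classical immediate early genes, transcribed within minutes of calcium entry or growth factor signaling by pre-existing factors such as CREB, serum response factor and MEF2, and their products then act on later genes. In the hippocampus, Fos is widely used as a marker of recently active neurons, and a truncated Fosb product known as ΔFosB accumulates with repeated activity. Atf3 is a stress-responsive factor of the ATF/CREB group that pairs with Jun proteins, and Maff is a small Maf protein that lacks a transactivation domain.

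The start regions of 6 members are shown because they hold letters to which activity-dependent factors are known to bind, and the other members are left out for lack of a match in the printed stretch or of an entry. RefSeq promoter entries (GRCm38.p6) matched 8 of the 9 members, with 10 windows in all, each covering 250 bases before and 50 bases after an annotated start. The 130 bases immediately before the start are printed 5′ to 3′ on the strand of the gene. Capitals mark, on either strand, TGACG (the core of the cAMP response element, CRE), the full CRE TGACGTCA, the related TGACATCA and TTACGTCA, TATAAA, and the MEF2 element.

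Fos, chr12:85473760-85473889, plus strand: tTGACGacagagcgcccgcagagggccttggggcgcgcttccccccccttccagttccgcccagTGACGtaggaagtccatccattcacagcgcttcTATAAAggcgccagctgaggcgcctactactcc
Fosb, chr7:19310046-19310175, minus strand: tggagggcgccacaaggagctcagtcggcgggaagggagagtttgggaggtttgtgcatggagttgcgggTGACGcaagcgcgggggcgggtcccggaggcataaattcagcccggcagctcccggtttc
Junb, chr8:84978749-84978878, minus strand: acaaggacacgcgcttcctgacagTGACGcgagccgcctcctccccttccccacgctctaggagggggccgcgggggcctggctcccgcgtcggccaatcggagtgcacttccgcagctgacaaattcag
Jun, chr4:95052223-95052352, minus strand: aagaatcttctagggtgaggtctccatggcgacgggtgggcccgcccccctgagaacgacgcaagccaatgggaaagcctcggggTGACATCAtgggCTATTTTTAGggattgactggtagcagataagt
Atf3, chr1:191183334-191183463, minus strand: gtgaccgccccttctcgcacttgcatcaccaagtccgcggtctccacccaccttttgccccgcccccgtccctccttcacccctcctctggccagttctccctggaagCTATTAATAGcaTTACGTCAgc
Maff, the second of its 3 annotated starts, chr15:79347390-79347519, plus strand: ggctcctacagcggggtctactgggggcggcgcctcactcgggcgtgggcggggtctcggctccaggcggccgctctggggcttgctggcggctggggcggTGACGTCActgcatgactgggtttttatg

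The letters TGACG occurred in 6 of the 10 member windows (1 each of Fos, Fosb, Junb and Atf3, and 2 of Maff), against 20.8% of all 32851 promoter windows of the same length. In Fos they began 129 and 66 bases before the start, in Fosb 60 and in Junb 106 bases before it. The full TGACGTCA, in which TGACG occurs on both strands, was found in Maff 29 bases before the start and in 1.79% of all windows. Jun held TGACATCA 45 bases and a MEF2 element 33 bases before its start, and Atf3 a MEF2 element 22 bases and TTACGTCA 10 bases before its start. TGACATCA was present in 3.62% of all windows, also in the third window of Maff, while TTACGTCA was present in 0.499% and the MEF2 element in 3.19%. TATAAA (13.6% of windows) lay 33 bases before the start of Fos and at the start itself of Junb. Neither the AP-1 site TGACTCA (5.20% of windows) nor the serum response element (1.63%) occurred in the member windows searched. The windows reach 250 bases before a start, so elements further upstream would not have been found. The printed starts of Atf3 and Maff, and the start of the Fosl2 window, lie inside the annotated genes, so other transcripts of these genes begin further upstream. The RefSeq start of Jund (position 70697739) lies before the GENCODE start of the gene (70698949). These matches describe letters only, and binding was not measured in this experiment.

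The libraries held between 28912697 and 29586355 estimated counts each, with 2.73% to 6.60% of them from mitochondrial genes. The Dnmt3a gene, which checks the shRNA labels, was at 312 CPM (counts scaled to library size) in Control-shRNA and 44.5 CPM in Dnmt3a1-shRNA2 cultures at baseline, and at 327 and 45.3 CPM with bicuculline (log2 differences of -2.81 and -2.85). The count is summed over Dnmt3a isoforms. Neuron markers were abundant in every group, with summed levels of 3763 to 4973 TPM (transcript abundance per length, as deposited), and astrocyte markers summed to 191.6 to 446.3 TPM. Oligodendrocyte lineage markers summed to 81.16 to 187.7 TPM, fibroblast and vessel markers to 28.83 to 73.84 TPM, microglia markers to 1.459 to 6.009 TPM and proliferation markers to 0.9951 to 2.965 TPM. The labelled cell type was therefore present in all libraries, together with glia.

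Activation of the network by bicuculline raised the expression of all 9 AP-1 genes under both shRNAs. In Control-shRNA cultures the increase ranged from 2.86-fold for Jund to 153-fold for Fosb, and in Dnmt3a1-shRNA2 cultures from 2.79-fold to 132-fold for the same genes. A gene was called changed at an adjusted p below 0.05 with a log2 fold change beyond 0.5, using edgeR's quasi-likelihood test adjusted by Benjamini-Hochberg over all 17222 genes. By this rule 9 of 9 members were called higher with bicuculline in Control-shRNA cultures, where 10.8% of all genes were, and 9 of 9 in Dnmt3a1-shRNA2 cultures, where 12.6% were. For all 9, every bicuculline library lay above every baseline library of the same shRNA, which held for 18.3% of all genes in Control-shRNA and for 18.4% in Dnmt3a1-shRNA2 cultures. The median log2 fold change of the members was 3.93 and 4.21, while over all genes tested it was 0.01 and -0.01. Levels below are given in CPM for comparisons of 1 gene between libraries, and in TPM, which accounts for transcript length, for comparisons between genes.

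**Figure D1:**
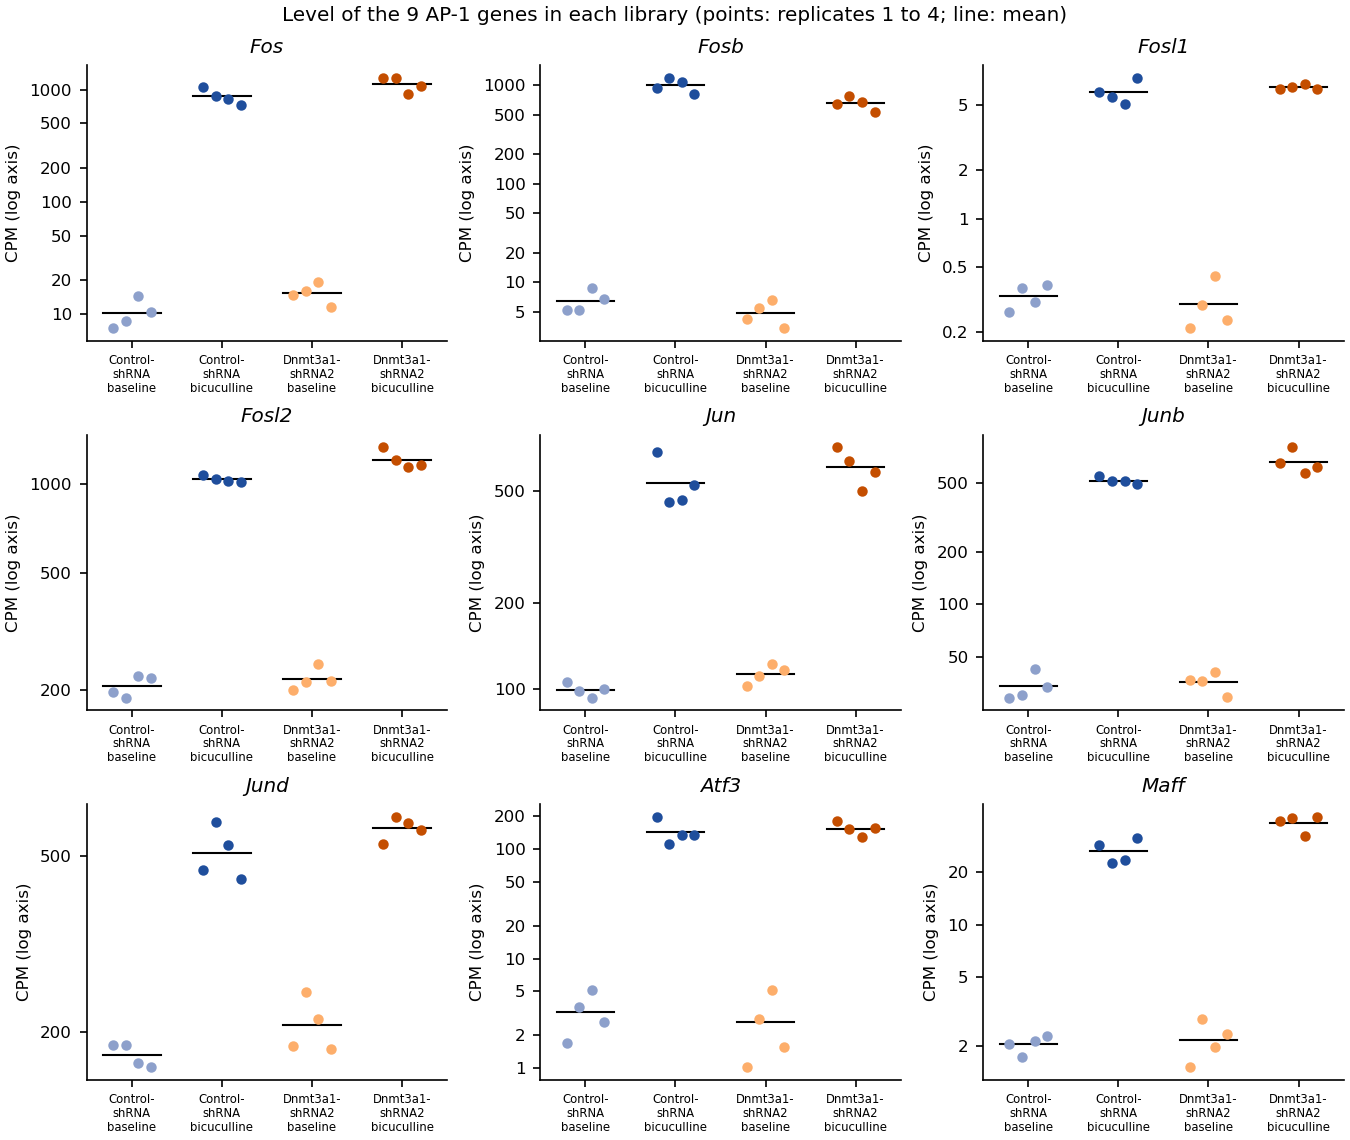
Level of each of the 9 AP-1 genes (CPM, log scale on the vertical axis) in each of the 16 libraries, arranged by group along the horizontal axis; points are libraries and horizontal lines are group means. In all panels the bicuculline libraries lie above the baseline libraries, from Jund (167 to 246 CPM at baseline and 445 to 615 CPM with bicuculline) to Fosb (3.43 to 8.70 CPM and 528 to 1182 CPM).

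Fos, the prototypical member (chr12:85473890-85477273, plus strand, GRCm38), was low at rest. In Control-shRNA cultures its level was 7.54, 8.77, 14.5 and 10.5 CPM at baseline and 1059, 873, 829 and 726 CPM with bicuculline (replicates 1 to 4). In Dnmt3a1-shRNA2 cultures the corresponding values were 14.9, 16.1, 19.2 and 11.6 CPM and 1260.0, 1276, 910.0 and 1070.5 CPM. The lowest stimulated library was far above the highest resting one under both shRNAs, and the response was 84.4-fold (log2 6.40, SE 0.22, adjusted p = 5.76e-13) and 72.9-fold (log2 6.19, SE 0.21, adjusted p = 5.85e-13). By mean TPM, Fos moved from rank 8434 among the genes tested to rank 126 in Control-shRNA cultures, and from rank 7045 to rank 94 in Dnmt3a1-shRNA2 cultures.

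Fosb (chr7:19302696-19310051, minus strand), whose full-length product is a transactivating Fos protein, had the largest fold change of the 9. In Control-shRNA cultures it was measured at 5.20, 5.22, 8.70 and 6.84 CPM at baseline and at 933, 1182, 1066 and 804 CPM with bicuculline. In Dnmt3a1-shRNA2 cultures the values were 4.22, 5.49, 6.57 and 3.43 CPM and 635, 770.1, 679 and 528 CPM. The stimulated libraries of the knockdown all lay below those of the control, a difference taken up below. The response was 153-fold (95% interval 111 to 212, adjusted p = 2.03e-13) with Control-shRNA and 132-fold (95.4 to 183, adjusted p = 2.12e-13) with Dnmt3a1-shRNA2, ranking 11 and 10 from the highest among 17222 genes. The 7 annotated transcripts of Fosb were summed, so ΔFosB was not separated from the full-length form.

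Fosl1 and Fosl2 encode the Fos-related antigens Fra-1 and Fra-2, and they differed widely in level. Fosl1 (chr19:5447547-5455946, plus strand) was close to the detection limit at baseline, with 0.211 to 0.445 CPM over the 8 libraries of both shRNAs, which corresponds to 6.19 to 13.5 estimated counts per library. With bicuculline it was at 6.03, 5.64, 5.08 and 7.40 CPM in Control-shRNA and at 6.33, 6.52, 6.77 and 6.31 CPM in Dnmt3a1-shRNA2 cultures. Fosl1 thus rose 18.0-fold (log2 4.17, SE 0.19, adjusted p = 1.51e-11) and 21.4-fold (log2 4.42, SE 0.19, adjusted p = 7.70e-12), yet remained the least abundant member by TPM in each group. These folds rest on counts. On the log2(TPM + 1) scale the change of Fosl1 was 2.55 and 2.18, and on the log2(TPM + 0.1) scale 3.39 and 2.86. Its mean TPM went from 0.965 to 10.4 with Control-shRNA and from 1.19 to 8.83 with Dnmt3a1-shRNA2, while its relative effective length went from 0.319 to 0.411 and from 0.188 to 0.492. Fosl2 (chr5:32135801-32157842, plus strand) was already expressed at rest, at 197, 188, 223 and 219.8 CPM in Control-shRNA and 201, 213, 245 and 214 CPM in Dnmt3a1-shRNA2 cultures. Under bicuculline it reached 1079, 1047, 1025 and 1019 CPM in the control and 1337, 1206, 1144 and 1166 CPM in the knockdown. Its response of 5.04-fold (log2 2.33, SE 0.08, adjusted p = 4.04e-13) and 5.56-fold (log2 2.48, SE 0.08, adjusted p = 1.89e-13) had the smallest standard error of the members.

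Among the Jun family, which supplies the partners of Fos proteins, Junb responded most. Junb (chr8:84974484-84978718, minus strand), a Jun protein with weak transactivation of its own, was at 29.1, 30.2, 42.3 and 33.6 CPM at baseline and 543, 512, 514 and 488 CPM with bicuculline in Control-shRNA cultures. In Dnmt3a1-shRNA2 cultures it was at 36.6, 36, 40.8 and 29.2 CPM and at 650.2, 799, 570.3 and 614 CPM. The response was 15.2-fold (log2 3.93, SE 0.13, adjusted p = 6.07e-13) and 18.5-fold (log2 4.21, SE 0.14, adjusted p = 2.34e-13). 

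Jun (chr4:95049034-95052222, minus strand), the target of the Jun N-terminal kinases, rose from 92.9 to 106 CPM at baseline to 688, 456, 463 and 524 CPM with bicuculline in Control-shRNA cultures. In Dnmt3a1-shRNA2 cultures it rose from 102 to 122 CPM to 713, 640.2, 499.6 and 584 CPM. The fold changes were 5.38 (log2 2.43, SE 0.13, adjusted p = 9.54e-11) and 5.41 (SE 0.13 on the log2 scale, adjusted p = 6.48e-11), and replicate 1 was the highest of the stimulated libraries under both shRNAs. Jund (chr8:70698949-70700616, plus strand), the Jun protein made constitutively in most cells, was at 167 to 188 CPM in Control-shRNA and 184 to 246 CPM in Dnmt3a1-shRNA2 cultures at baseline. With bicuculline it was at 467, 598, 530.4 and 445 CPM and at 534, 615, 596 and 574 CPM. Jund had the smallest response of the 9, with 2.86-fold (log2 1.52, SE 0.10, adjusted p = 2.13e-09) and 2.79-fold (log2 1.48, SE 0.10, adjusted p = 2.18e-09).

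Atf3 (chr1:191170296-191218039, minus strand) varied most at rest in relation to its mean CPM, with 1.68, 3.61, 5.20 and 2.63 CPM in Control-shRNA and 1.02, 2.81, 5.11 and 1.55 CPM in Dnmt3a1-shRNA2 cultures. Replicate 3 was the highest and replicate 1 the lowest of both baseline groups. With bicuculline Atf3 was at 197, 111, 135 and 135 CPM and at 179, 153, 128 and 156 CPM, a response of 43.7-fold (log2 5.45, SE 0.34, adjusted p = 1.17e-09) and 57.9-fold (log2 5.86, SE 0.35, adjusted p = 5.01e-10). Maff (chr15:79346621-79359076, plus strand) was at 1.51 to 2.84 CPM in the 8 baseline libraries. It reached 28.8, 22.7, 23.5 and 31.7 CPM in Control-shRNA and 39.7, 41.0, 32.4 and 41.8 CPM in Dnmt3a1-shRNA2 cultures, which was 13.1-fold (log2 3.71, SE 0.16, adjusted p = 9.42e-12) and 17.8-fold (log2 4.15, SE 0.16, adjusted p = 2.25e-12). On the log2(TPM + 1) scale the change of Maff was 3.02 and 3.50.

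In the order of log2 responses from counts, Fosb, Fos and Atf3 stood first, followed by Fosl1, Junb and Maff, then Jun and Fosl2, and Jund last. Within each of these sets the 95% intervals of neighbors overlapped under both shRNAs. Between the sets they did not: Atf3 lay above Fosl1, Maff lay above Jun and Fosl2, and these lay above Jund. The place of Fosl1 differed in TPM. With Dnmt3a1-shRNA2 its response was 2.06-fold below that of Junb and 2.04-fold below that of Maff, with the ratios of the libraries apart, and its ratios to Jun and to Fosl2 overlapped between baseline and bicuculline. With Control-shRNA its ratios to Junb, Maff and Jun overlapped, and its ratio to Fosl2 was 2.67-fold higher with bicuculline. The 18 calls of the 9 members under both shRNAs remained when each of the 16 libraries was left out in turn, and under every other setting that could test the gene. Beside these responses, Gad1 and Gad2, of 3 GABAergic neuron markers, were called higher with bicuculline under both shRNAs (log2 0.61 and 0.65 with Control-shRNA, 0.73 and 0.82 with Dnmt3a1-shRNA2), and 0 of 6 astrocyte markers were called. Of 4 excitatory neuron markers, 1 was called higher and 1 lower under each shRNA. Under each shRNA 1 of 6 neuron markers and 1 of 7 oligodendrocyte lineage markers were called lower. Fibroblast and vessel markers had 1 of 6 called higher with Control-shRNA and 2 of 6 with Dnmt3a1-shRNA2, and microglia markers 0 and 1 of 2. Of all genes, 10.8% and 12.6% were called higher and 11.1% and 13.2% lower. The summed neuron markers went from 4280 to 4749 TPM at baseline to 3844 to 4180 TPM with bicuculline in Control-shRNA, and from 4397 to 4973 TPM to 3763 to 4300 TPM in Dnmt3a1-shRNA2 cultures. In the fit used for the calls, the median log2 change of these markers was positive (0.2064 with Control-shRNA and 0.206 with Dnmt3a1-shRNA2). On the log2(TPM + 1) scale the median change over all genes was -0.14 and -0.13. Among baseline libraries, replicate 3 held the highest level of 5 of 9 members with Control-shRNA and of 7 of 9 with Dnmt3a1-shRNA2, and it also had the lowest mitochondrial share of each group. The part of these values in the results was not tested.

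**Figure D2:**
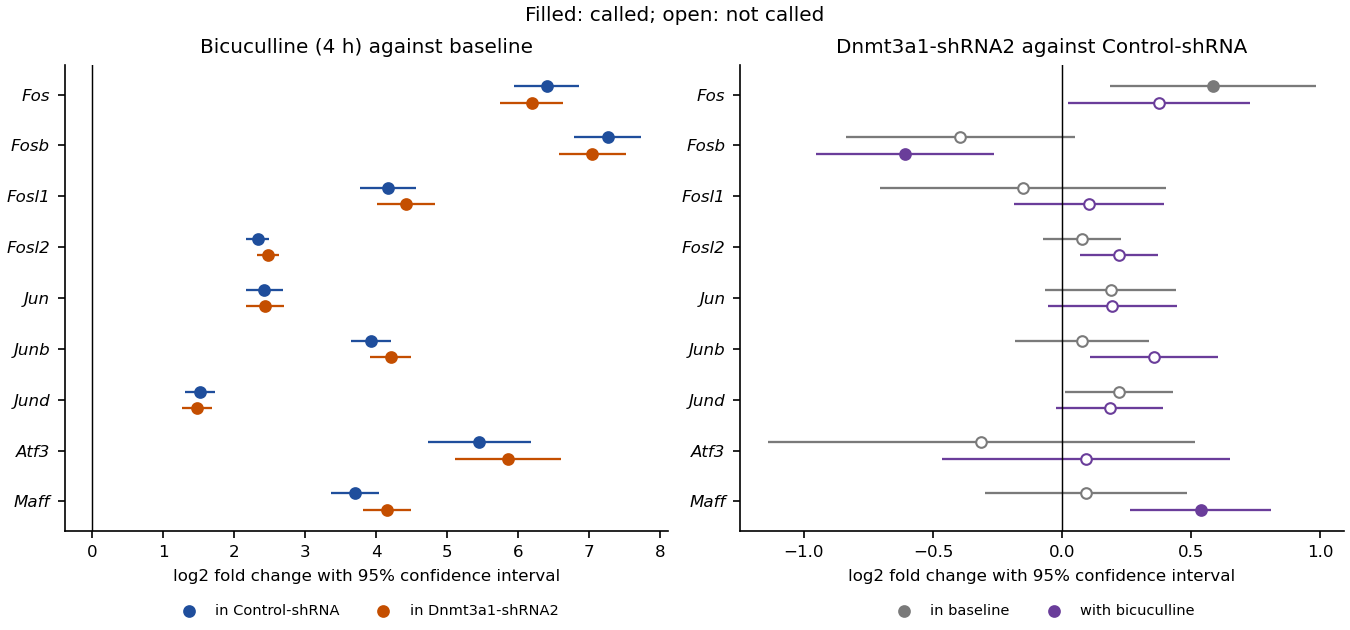
Log2 fold change of each AP-1 gene (horizontal axis) for bicuculline under each shRNA and for Dnmt3a1-shRNA2 against Control-shRNA at baseline and with bicuculline; points are edgeR estimates and bars are 95% intervals. Bicuculline responses run from 1.48 to 7.26, while the knockdown differences run from -0.61 (Fosb with bicuculline) to 0.58 (Fos at baseline).

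As the members responded to different degrees, the make-up of the AP-1 pool differed between baseline and bicuculline libraries, described here by TPM. At baseline in Control-shRNA cultures, Jund was the most abundant AP-1 transcript (251 ± 14.3 TPM, SD, n = 4), followed by Jun (68.6 ± 0.320) and Fosl2 (68.3 ± 8.14), whose ranges overlapped. Junb (43.8 ± 10.1 TPM) and Fos (13 ± 4.31 TPM) came next. Fosb (4.18 ± 1.25 TPM), Atf3 (4.03 ± 1.96 TPM) and Maff (2.47 ± 0.355 TPM) were low, with overlapping ranges between neighbors, and Fosl1 (0.965 ± 0.528 TPM) was last.

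After bicuculline the order in Control-shRNA cultures was led by Fos (883 ± 97.3 TPM). Jund (623 ± 99.4 TPM), Fosb (575 ± 90.9 TPM) and Junb (572 ± 22.2 TPM) followed, without a separation between neighbors in that order. Jun (318 ± 47.4 TPM) and Fosl2 (297 ± 9.51 TPM) again overlapped, above Atf3 (144 ± 30.0 TPM), Maff (27.3 ± 4.13 TPM) and Fosl1 (10.4 ± 1.78 TPM).

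In Dnmt3a1-shRNA2 cultures the baseline order was the same down to Fos (Jund 271 ± 46.2, Jun 72.5 ± 11.2, Fosl2 66.4 ± 11.2, Junb 42.5 ± 7.92, Fos 17.6 ± 4.48 TPM). Below it, the ranges of neighbors overlapped from Atf3 (3.04 ± 2.12 TPM) through Fosb (2.92 ± 0.907 TPM) and Maff (2.38 ± 0.644 TPM) to Fosl1 (1.19 ± 0.530 TPM). With bicuculline Fos again led (1075 ± 139 TPM), ahead of Junb (680.3 ± 91.1 TPM) and Jund (659 ± 72.5 TPM), which overlapped. Fosb stood at 357 ± 62.0 TPM, below Jund and beside Jun (338 ± 29.1 TPM) and Fosl2 (329 ± 14.9 TPM), whereas in stimulated Control-shRNA cultures its range had overlapped that of Jund. Atf3 (143 ± 10.6 TPM), Maff (36.8 ± 3.00 TPM) and Fosl1 (8.83 ± 1.39 TPM) completed the order.

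The summed level of the 9 genes rose from 456 ± 29.7 to 3451 ± 199 TPM in Control-shRNA and from 479 ± 76.4 to 3627 ± 274 TPM in Dnmt3a1-shRNA2 cultures (SD, n = 4). Jund made up 55.1% of this sum at rest and 18.0% with bicuculline in Control-shRNA, and 56.5% and 18.2% in Dnmt3a1-shRNA2 cultures. The share of Fos went from 2.83% to 25.6% and from 3.65% to 29.6%. Fosb went from 0.908% to 16.6% with Control-shRNA and from 0.601% to 9.82% with Dnmt3a1-shRNA2. The ratio of the 4 Fos family genes to the 3 Jun family genes was 0.238 ± 0.0334 at rest and 1.17 ± 0.05 with bicuculline in Control-shRNA cultures, and 0.228 ± 0.0202 and 1.06 ± 0.0774 in Dnmt3a1-shRNA2 cultures. The resting pool was thus mostly Jun family RNA and the stimulated pool held Fos and Jun family RNA at similar levels.

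**Figure D3:**
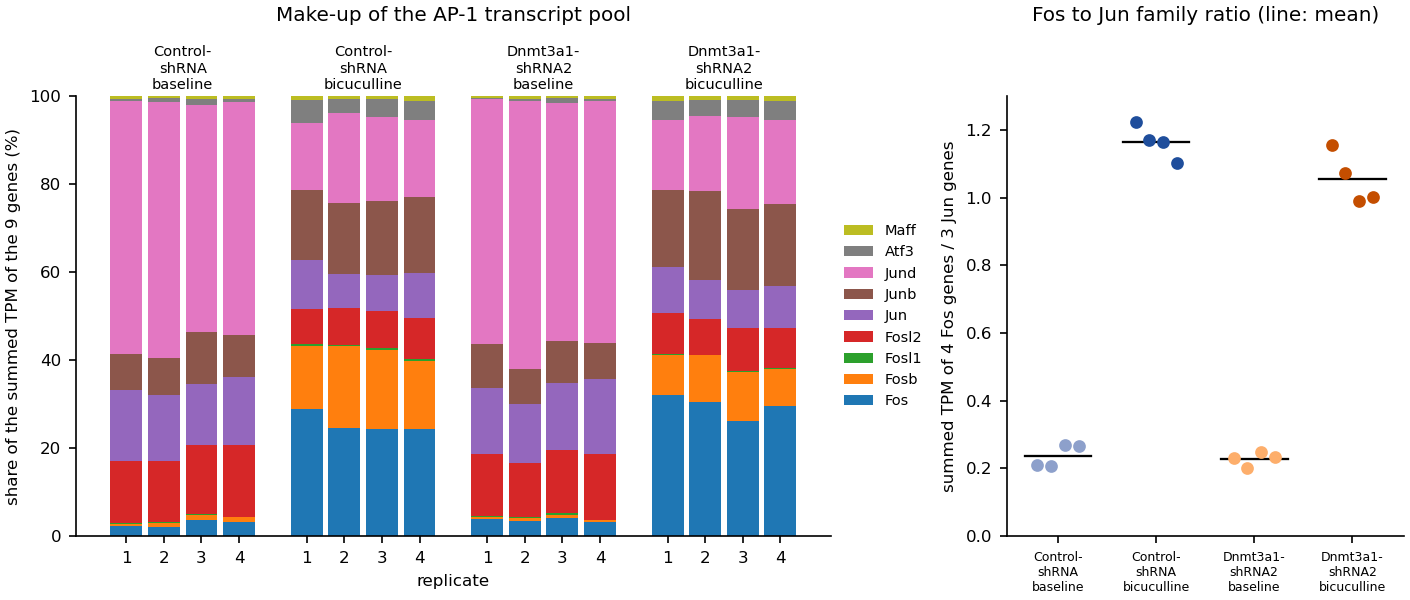
Left, share of the summed TPM of the 9 AP-1 genes taken by each gene (vertical axis, percent; 1 stacked bar per library, 4 groups along the horizontal axis), where Jund has means of 55.1% and 56.5% at baseline and 18.0% and 18.2% with bicuculline. Right, ratio of summed TPM of the 4 Fos to the 3 Jun family genes (points are libraries, lines are means), at 0.201 to 0.269 at baseline and 0.989 to 1.23 with bicuculline.

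The comparison between shRNAs asked whether AP-1 expression differed when Dnmt3a1 was targeted. Only 1 targeting construct was sequenced, so an effect of lower Dnmt3a1 cannot be told apart from an off-target effect of that construct. At baseline, Fos was called higher with Dnmt3a1-shRNA2 (15.5 ± 3.13 against 10.3 ± 3.01 CPM, SD, n = 4), a 1.5-fold difference with overlapping groups (log2 0.58, 95% interval 0.18 to 0.98, adjusted p = 0.0437). It was the 1 member of 9 called higher, where 1.76% of all genes were, and 0 of 9 were called lower, where 4.07% were. None of the 9 had groups that did not overlap, against 19.9% of all genes. The Fos call was lost when any of 12 of the 16 libraries was left out, with log2 differences of 0.46 to 0.60 and adjusted p of 0.0501 to 0.135. It was kept without replicate 3 of the Control-shRNA baseline, replicate 1 of the Control-shRNA bicuculline, replicate 4 of the Dnmt3a1-shRNA2 baseline or replicate 3 of the Dnmt3a1-shRNA2 bicuculline group. Of 10 other settings, 5 did not call it either.

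Of the members not called at baseline, Fosb had a log2 difference of -0.39 (95% interval -0.84 to 0.05, adjusted p = 0.229) and Jund of 0.22 (0.01 to 0.43, adjusted p = 0.147). The log2 difference was 0.19 for Jun, 0.08 for Junb, 0.08 for Fosl2, 0.09 for Maff, -0.15 for Fosl1 and -0.31 for Atf3. The interval for Atf3, -1.14 to 0.51, was the widest. Over the 9 members the median log2 difference was 0.08, and over all genes it was 0.01.

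With bicuculline, Fosb was called lower and Maff higher in Dnmt3a1-shRNA2 cultures. Fosb was at 653 ± 100.4 CPM against 996 ± 164 CPM in Control-shRNA cultures (SD, n = 4), a decrease of 34.4% (log2 -0.61, SE 0.16, 95% interval -0.95 to -0.26, adjusted p = 0.0156). The highest knockdown library (770.1 CPM) lay below the lowest control library (804 CPM). Maff was at 38.7 ± 4.28 against 26.7 ± 4.34 CPM, a 1.45-fold increase (log2 0.54, SE 0.13, 95% interval 0.26 to 0.81, adjusted p = 0.00819), and here the lowest knockdown library (32.4 CPM) lay just above the highest control library (31.7 CPM). These calls were 1 of 9 members lower, where 3.90% of all genes were called lower, and 1 of 9 higher, where 2.0% were called higher. The Fosb call was lost without replicate 2 of the Control-shRNA bicuculline group (log2 -0.52, adjusted p = 0.0530) and without replicate 4 of the Dnmt3a1-shRNA2 bicuculline group (-0.52, adjusted p = 0.0572). The Maff difference dropped below the fold threshold without the same libraries (log2 0.47 and 0.49) and without replicate 3 of the Control-shRNA bicuculline group (0.48), and with library size scaling alone (0.47). On the log2(TPM + 1) and log2(TPM + 0.1) scales Maff was also not called by its adjusted p from limma (0.43, adjusted p = 0.0599, and 0.44, adjusted p = 0.113).

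Fosl2 and Junb differed in the stimulated cultures by less than the fold threshold. Fosl2 was higher by 0.22 on the log2 scale with Dnmt3a1-shRNA2 (95% interval 0.07 to 0.37, adjusted p = 0.0431) and Junb by 0.36 (0.11 to 0.60, adjusted p = 0.0449), each with groups that did not overlap. With Fosb and Maff, 4 of 9 members thus had separate groups, against 20.9% of all genes. Fos was at 1129 ± 173 against 872 ± 139 CPM (log2 0.37, 95% interval 0.02 to 0.73, adjusted p = 0.136) with overlapping groups. The log2 differences of Jun (0.19), Jund (0.18), Fosl1 (0.10) and Atf3 (0.09) did not pass the test, and the interval for Atf3 ran from -0.47 to 0.65. The median over the 9 was 0.19 and that over all genes was -0.01.

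The summed level of the GABAergic neuron markers (Gad1, Gad2 and Slc32a1) also separated the shRNAs. It was 876.7 to 1002 TPM in Control-shRNA and 559.8 to 741.6 TPM in Dnmt3a1-shRNA2 cultures at baseline, and 1121 to 1268 and 839.8 to 985.6 TPM with bicuculline, although 0 of these 3 markers were called for the knockdown. Excitatory neuron markers summed to 1546 to 1641 TPM and 1297 to 1493 TPM at baseline, and to 1169 to 1361 and 978.5 to 1280 TPM with bicuculline, so they separated the shRNAs at baseline, with 0 of 4 called. Summed microglia markers separated the shRNAs with bicuculline (3.371 to 5.226 against 1.771 to 2.738 TPM), and 1 of 2 tested was called lower with the knockdown in each condition. Summed proliferation markers separated them at baseline (2.386 to 2.913 against 1.875 to 2.218 TPM), with 0 of 3 called. Neuron markers had 1 of 6 called higher at baseline, and fibroblast and vessel markers 1 of 6 with bicuculline. Of all genes, 1.76% at baseline and 2.0% with bicuculline were called higher, and 4.07% and 3.90% lower. Summed astrocyte and oligodendrocyte lineage markers overlapped between the shRNAs, with 0 of 6 and 0 of 7 called. In the fit used for the calls, the median log2 differences (baseline, then bicuculline) were -0.31 and -0.14 for GABAergic markers. They were -0.01 and 0.07 for excitatory, 0.40 and 0.42 for astrocyte, and 0.10 and 0.12 for oligodendrocyte lineage markers. Neuron markers had 0.07 and 0.05, and fibroblast and vessel markers 0.31 and 0.22. The part of these values in the differences of Fos, Fosb and Maff was not tested.

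Fos and Fosb are both immediate early genes, and in both conditions the mean of Fos was higher and that of Fosb lower with Dnmt3a1-shRNA2. The ratio of Fos to Fosb, in TPM, was chosen after their values were seen and is given as a description. At baseline it was 3.34, 2.62, 3.20 and 3.29 in Control-shRNA and 6.10, 5.12, 6.15 and 7.36 in Dnmt3a1-shRNA2 libraries. With bicuculline it was 2.0, 1.32, 1.36 and 1.58 in Control-shRNA and 3.45, 2.91, 2.34 and 3.56 in Dnmt3a1-shRNA2 libraries. Every knockdown library exceeded every control library of the same condition, and the geometric means were 1.98-fold apart at baseline (6.13 against 3.10) and 1.96-fold apart with bicuculline (3.02 against 1.54). The ratio was 2.01-fold lower with bicuculline than at baseline in Control-shRNA and 2.03-fold lower in Dnmt3a1-shRNA2 cultures, so that the stimulated knockdown libraries were close to the resting control libraries. Of the 36 pairs of members, Fos to Fosb was the 1 pair whose ratio separated the shRNAs in the same direction in both conditions. How often this holds for pairs of other genes was not computed.

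**Figure D4:**
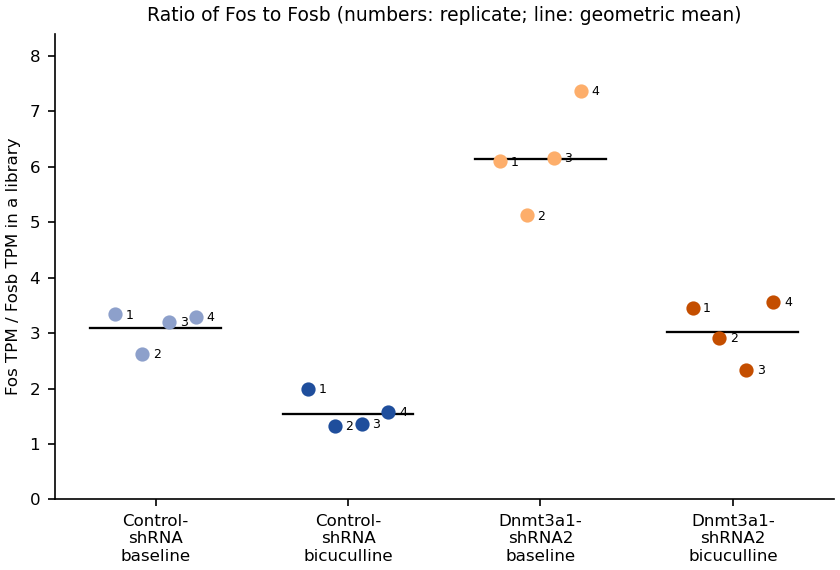
Ratio of Fos to Fosb (TPM divided by TPM, vertical axis from 0) in each library of the 4 groups (horizontal axis); points are libraries, numbered by replicate, and lines are geometric means. At baseline the Control-shRNA libraries lie at 2.62 to 3.34 and the Dnmt3a1-shRNA2 libraries at 5.12 to 7.36, and with bicuculline at 1.32 to 2.0 and 2.34 to 3.56.

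At baseline 2 of the 36 pairs separated the shRNAs, Fos to Fosb and Fos to Junb (1.41-fold higher in the knockdown). With bicuculline 7 did. The ratio of Fosb to Maff was 2.19-fold lower in the stimulated knockdown, that of Fosb to Junb 1.91-fold, to Fosl2 1.79-fold, to Jun 1.73-fold and to Jund 1.71-fold lower, and the seventh pair was Fosl1 to Maff (1.59-fold lower). Fosb was therefore part of 6 of the 7 pairs. The pairs are not independent, as each gene enters several of them. The share over pairs of other genes was not computed, so these counts are a description only.

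Whether the bicuculline response itself differed between the shRNAs was tested by the interaction term. It called 0 of 9 members and 0.00% of all genes, with an adjusted p of 1.0 for each member. At an unadjusted p below 0.05 the term found 852 genes (4.95%) and 0 members. DESeq2 called 17 genes, none of them members. The difference in log2 response (Dnmt3a1-shRNA2 minus Control-shRNA) was 0.44 for Maff (95% interval -0.03 to 0.92), 0.41 for Atf3 (-0.59 to 1.4), 0.28 for Junb (-0.08 to 0.64), -0.21 for Fos (-0.74 to 0.32) and -0.21 for Fosb (-0.78 to 0.35). Each of these intervals includes 0. The lower Fosb in the stimulated knockdown was thus not shown to be a difference in its induction.

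The estimated count of a gene divided by its TPM follows the mean effective length of its transcripts, and was used to look for changes in transcript mix. Each library was scaled to the median over genes with at least 100 counts, and a member was included where it had at least 50 counts in the libraries used. In Control-shRNA cultures the groups did not overlap for 6 of 8 members, against 24.3% of all genes. Effective length was higher with bicuculline for Atf3 (6.43%), Maff (2.80%), Fosl2 (0.99%), Jun (0.89%), Junb (0.86%) and Jund (0.80%), each with an exact two-sided permutation p of 0.0286, the smallest that 4 against 4 libraries allow, before any adjustment. The median over all genes also moved up, by 0.0097 on the log2 scale, against 0.0143 for Fosl2, 0.0128 for Jun, 0.0124 for Junb and 0.0116 for Jund. In Dnmt3a1-shRNA2 cultures it was higher for 4 of 6, against 29.3% of all genes, namely Fos (4.99%), Jund (1.55%), Junb (1.49%) and Jun (1.47%). The median log2 difference over all genes was 0.0194 here, close to those of Jund (0.0222), Junb (0.0213) and Jun (0.021). Jun and Jund each have 1 annotated transcript, so their values hold no change in the mix of annotated transcripts. Between the shRNAs 0 of 6 members separated at baseline, where 3.03% of genes did, and 4 of 9 (Junb, Jund, Atf3 and Maff, each by less than 1%) with bicuculline, where 13.9% did. In the latter comparison these log2 differences (0.0066 to 0.0103) were near the median over all genes of 0.0095.

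Genes around the AP-1 set were examined as lists. A list of further bZIP partners and Maf genes had 13 tested members, of which bicuculline raised 3 and lowered 2 in Control-shRNA cultures, and 4 and 2 in Dnmt3a1-shRNA2 cultures. Of all genes, 10.8% and 12.6% were called higher and 11.1% and 13.2% lower. Bach1 and Bach2, repressors that pair with small Maf proteins, rose by 1.21 and 1.2 on the log2 scale with Control-shRNA and by 1.24 and 1.5 with Dnmt3a1-shRNA2. Mafk, a small Maf gene named after its values were seen, rose by 1.01 and 0.95, and Mafa, also named afterwards, by 0.51 in Dnmt3a1-shRNA2 cultures. Nfe2l3, a Cap'n'collar factor, decreased by 1.26 and 1.37, and Atf7, an ATF factor that pairs with Jun proteins, by 0.51 and 0.53. The median of the list was 0.19 and 0.17. For the knockdown 0 of the 13 were called in either condition.

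Of 17 kinases and factors upstream of AP-1, 2 were called higher and 1 lower with bicuculline in Control-shRNA, and 1 and 1 in Dnmt3a1-shRNA2 cultures. These counts were near or below the shares of all genes called higher (10.8% and 12.6%) and lower (11.1% and 13.2%). Srf, the serum response factor, rose by 0.76 with Control-shRNA, while its value with Dnmt3a1-shRNA2 (0.43) was below the fold threshold. Elk4 rose by 0.67 and 0.92 and Elk1 decreased by 0.58 and 0.77, both being ternary complex factors that bind beside serum response factor. The list medians were 0.15 and 0.21, and 0 of 17 were called for the knockdown in either condition. For the 9 AP-1 genes the corresponding medians were 3.93 and 4.21.

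Of 13 tested textbook AP-1 targets, 7 were called higher and 0 lower under each shRNA, with list medians of 0.66 and 0.77. Of all genes, 10.8% and 12.6% were called higher and 11.1% and 13.2% lower. Penk, the enkephalin precursor, went from 6.25 ± 0.717 to 88.1 ± 18.2 CPM in the control (log2 3.82, SE 0.16) and from 4.60 ± 0.623 to 83.7 ± 12.7 CPM in the knockdown (4.18, SE 0.16). Scg2, the secretogranin II gene, rose by 2.30 and 2.57. For the knockdown 1 of 13 was called higher at baseline, where 1.76% of all genes were, and 0 with bicuculline. The gene at baseline was Timp1, an inhibitor of matrix metalloproteinases (log2 0.75). Its mean was 0.972 CPM over all libraries, below the minimum for named genes, and it was named after its value was seen. Of 12 tested cell stress genes, 8 were called higher with Control-shRNA and 7 with Dnmt3a1-shRNA2, and 0 lower, with list medians of 1.03 and 1.05. Ppp1r15a (GADD34), a phosphatase subunit of the integrated stress response, rose by 2.47 and 2.98. Sesn2, a stress-induced regulator of growth signaling, rose by 1.70 and 1.63, and the heat shock gene Hspa1b, which shares reads with its near-identical copy Hspa1a, by 1.69 and 1.89. Hspa1a, on the same list, was not called, with log2 changes of 0.15 with Control-shRNA and 0.27 with Dnmt3a1-shRNA2. How the shared reads were divided between the copies was not tested. For the knockdown 0 of 12 were called in either condition. The interaction term called 0 genes of each list.

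The genes whose levels were most like those of each member over the 16 libraries were found by Pearson's r of log2 CPM. As the libraries fall into a baseline and a bicuculline set, r mostly reflects that separation and is descriptive. Nr4a2, an orphan nuclear receptor gene, was the nearest to Fos (r = 0.999), Fosl2 (0.999) and Junb (0.999), with 63.1 CPM at baseline and 877 CPM with bicuculline in Control-shRNA cultures. The second nearest were Npas4, a neuronal activity-dependent factor, for Fos (0.998), Ets2 for Fosl2 (0.999) and Dusp4, a MAP kinase phosphatase, for Junb (0.997). Fosb was nearest to Gla (0.996) and Nr4a1 (0.996), and Gla, the alpha-galactosidase gene, was lower in knockdown than in control cultures on average (13.9 against 15.9 CPM at baseline, 53.9 against 63.5 CPM with bicuculline). Sertad1 was among the nearest of both Fosl1 (0.994, with Dusp1 at 0.994) and Atf3 (0.994, with Nptx2 at 0.993). Jun was nearest to Tiparp (0.997) and Btg1 (0.997), Maff to Cry2 (0.994) and Erf (0.994), and Jund to Cdk2ap1 (0.989) and Tmem198 (0.989).

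For 5 members a gene is annotated on the opposite strand at the same place, and the strandedness of the counting is not given in the sources used here, so that reads in the shared stretch cannot be told apart. These were Ccdc85b for Fosl1, Junos for Jun, Prdx2 for Junb, Gm11175 for Jund and Gm24748 for Atf3. Junos, the antisense transcript beside Jun, was itself called higher in the knockdown at baseline (log2 0.80, adjusted p = 0.0274) and with bicuculline (1.08, adjusted p = 0.00305), at group means of 0.624 CPM to 1.70 CPM. Jun was not called for the knockdown in either condition.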

How the data were processed

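Cultures were sequenced on a BGISeq-500 and, according to the submitters' processing notes, reads were trimmed with Trim Galore 0.6.4 and quantified with kallisto 0.4.6 against GRCm38.p6. The authors deposited estimated counts, not normalized, and TPM (abundance scaled by transcript length and to a fixed sum per library), both as sums per gene. Estimated counts were rounded and fitted for all 16 libraries and 4 groups in 1 model with edgeR 4.0.16 (R 4.3.3): filterByExpr, TMM scaling, quasi-likelihood test, Benjamini-Hochberg adjustment. CPM are counts relative to the TMM-scaled library size. Genes were called at an adjusted p under 0.05 and a log2 fold change beyond 0.5. The interaction used the adjusted p alone.

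Libraries were grouped by the labels, which give the shRNA target without a construct number; that number is from the study's methods. Libraries of a group differed by more than sampling noise (chi-square divided by its degrees of freedom, 7.88 to 44.5). Same-numbered libraries deviated together in every pair for bicuculline in Control-shRNA (r 0.142 to 0.221) and for the knockdown in baseline (0.204 to 0.355). Replicate 4 did not correlate best with its own number in either. A fit with the replicate number as a block took up such deviations (1 member called for the knockdown in baseline, as without it). The members and lists were chosen with earlier results of these data known. Besides the 9 members, the text names from each non-marker list the 2 called genes per direction with the largest change at a mean of at least 1 CPM, and the 2 genes most like each member. Outside this rule are Mafk, Mafa and Timp1, named after their values were seen, and Hspa1a, given beside its copy Hspa1b. The knockdown target, genes that overlap a member, and markers are also outside it. Alternatives used limma 3.58.1 and DESeq2 1.42.0. The code was tested on simulated data.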

Additional observations from a re-analysis of the deposited data

How the results depend on the processing

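The count of members called for bicuculline (9 under each shRNA) was the same under all settings able to test every member; Fosl1 could not be tested with 10 counts required in every library. For the knockdown at baseline the count of 1 became 0 under library size scaling alone, voom with limma, log2(TPM + 1), log2(TPM + 0.1), fits limited to the groups being compared, and a log2 fold threshold of 1, and ranged from 0 to 1 when libraries were left out. For the knockdown with bicuculline the count of 2 became 1 under library size scaling alone and both TPM settings, 4 with no fold threshold and 0 with a threshold of 1, and ranged from 0 to 2 when libraries were left out. Under library size scaling alone, log2(TPM + 1) and log2(TPM + 0.1), uncalled knockdown differences at baseline changed sign: Fosl2 to -0.0006, -0.046 and -0.0467, Junb to -0.0043, -0.0332 and -0.0337, and, under both TPM settings, Fosl1 to 0.1622 and 0.3071 and Maff to -0.0521 and -0.0805. Fosl1 also changed sign with bicuculline (-0.2089 and -0.2285) and in the interaction (-0.3711 and -0.5356). The cause was not tested. Leaving out libraries gave both signs for Atf3 at baseline (-0.8677 to 0.0022) and with bicuculline (-0.0165 to 0.2758), Maff at baseline (-0.0653 to 0.2261), and the interactions of Jun (-0.0781 to 0.1523) and Jund (-0.0909 to 0.056). The effective length of Jund at baseline differed by 0.0032 when scaled on genes with 1000 counts.

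Library size scaling alone moved the median bicuculline change of all genes to -0.15 and -0.16, log2(TPM + 1) to -0.14 and -0.13, and log2(TPM + 0.1) to -0.19 and -0.18. In Control-shRNA cultures 1854 of 3765 called genes were higher in the fit used, 1365 of 4397 under library size scaling alone, 1052 of 3679 under log2(TPM + 1) and 1243 of 4455 under log2(TPM + 0.1). With no fold threshold the calls were 7131 and 7919 for bicuculline and 2809 and 3046 for the knockdown, against 3765, 4436, 1004 and 1015; with a threshold of 1 they were 1378, 1681, 175 and 185.

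With the replicate block, 9, 9, 1, 2 and 0 members were called for the 2 bicuculline contrasts, the 2 knockdown contrasts and the interaction, so that no member's call changed. The adjusted p of the blocked edgeR test did change for the knockdown. For Jund it was 0.0191 at baseline (log2 0.21) and 0.0272 with bicuculline (0.19), both below the fold threshold. It was 0.026 for Fos at baseline, and 0.000238 for Fosb and 0.00063 for Maff with bicuculline. Fosb at baseline (0.0595) and Fos with bicuculline (0.0537) stayed above 0.05. Over all genes the block gave 3986, 4612, 1284, 1338 and 3 calls. For bicuculline in Dnmt3a1-shRNA2 and the knockdown with bicuculline same-numbered libraries correlated at 0.0631 to 0.337 and 0.0667 to 0.388. In these 2 contrasts replicates 2 and 4 did not correlate best with their own number. In the other bicuculline and knockdown contrasts this held for replicate 4. The ratio of Fos to Fosb was also computed from counts, chosen after seeing the data: log2 differences were -0.85 and -0.88 for bicuculline and 1.01 and 0.98 for the knockdown. Leaving out 1 library, or permuting within replicate numbers, cannot bring the exact p of an effective length below 0.0571 or 0.125.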
